A study of Mus musculus with 6 samples.

Results

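The genes described here are 9 regulators and receptors of complement, Cfi, Cd55, Cd46, Cd59a, Serping1, Cr1l, C3ar1, C5ar1 and Clu. They were taken by symbol from the authors' table of poly(A) RNA sequencing of mouse RPE/choroid, and each of the 9 was found among its 33924 genes. The study sequenced RPE/choroid, the pigmented epithelium behind the retina together with its vascular bed, from 3 young and 3 aged wild-type C57BL/6J mice. Each sample pooled the 2 eyes of 1 mouse. The titles put the young mice at 1 to 2 months and the aged mice at 20 to 24 months, whereas the age field of the aged mice gives 22 to 24 months. The labels describe male mice and the study's methods mice of both sexes. The study's methods place the young mice slightly older than the labels do. The labels name poly(A) RNA as the molecule and their protocol describes removal of ribosomal RNA, and the study describes these libraries as both depleted of rRNA and selected for poly(A). The value used for each gene is the authors' mean normalized count, which pools the 6 libraries of both ages. A pooled mean carries no SD, and the other numerical columns of the table, which hold the authors' own age comparison, were not used. Young and aged mice were therefore not compared here, and levels are given as descriptions with no test.

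Complement is a cascade of plasma and tissue proteins that coats targets, recruits leukocytes and forms pores in membranes. Its classical pathway starts with C1q and the proteases C1r and C1s, its alternative pathway amplifies deposited C3b, and both lead to cleavage of C3 and C5. Host tissue holds the cascade back at each step, by inactivating C1r and C1s, by dissociating or cleaving C3b and C4b and by stopping the terminal pore. The small fragments C3a and C5a are sensed by G protein-coupled receptors on myeloid cells. Regulation of complement at the RPE and choroid is a long-standing theme in the study of age-related macular degeneration.

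Taken as a group, the 9 genes spanned a 2458-fold range of level per kilobase, and Clu alone held most of their counts. Their means summed to 0.183% of all mean normalized counts in the table, which total 40816668, and 83.8% of the members' sum was Clu. Each of the 9 had a mean of at least 10 normalized counts, the minimum set here for ranking a gene. Among the 17973 genes that passed this minimum and had an annotated length, 5 members lay above the median of 213 counts per kilobase and 4 below it. Levels were divided by the length of each gene's longest annotated transcript wherever genes are compared. At the same abundance a long transcript yields more reads than a short one. By the study's methods, however, the normalized counts came from TPM values, a unit already scaled for transcript length. Whether the deposited means keep that scaling was not tested. If they do, the division corrects for length again, and all levels per kilobase and their ratios carry that uncertainty. Without the division, Cd46 was at percentile 21.0 rather than 9.22 and Cd59a at 75.1 rather than 83.4. In bulk tissue a low level can come from few cells that express a gene or from little RNA per cell, and these cannot be told apart.

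**Figure D1:**
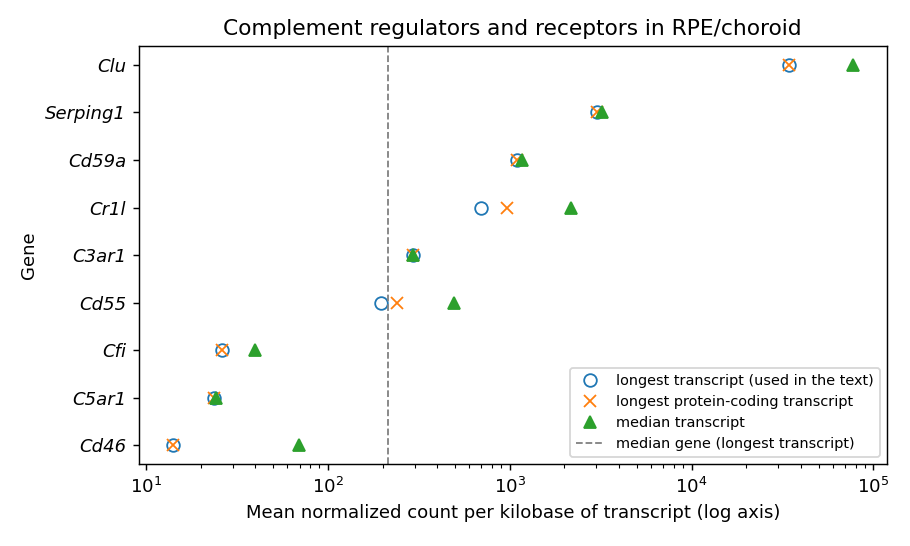
Mean normalized count per kilobase of transcript for the 9 genes (log axis), with 1 point for each choice of transcript length and a dashed line at the median gene of 213 counts per kilobase. The line was computed with the longest transcript and does not apply to the points of the other lengths. The points are authors' means over 6 libraries and carry no error bar. Clu lies highest at 34496 and Cd46 lowest at 14.0 with the longest transcript.

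Clu encodes clusterin, a secreted chaperone that also binds the terminal complement complex and hinders its insertion into membranes. In GRCm38, Clu (ENSMUSG00000022037) is annotated on chromosome 14 between 65968483 and 65981547, plus strand. Its mean normalized count was 62438, the 36th highest of the 18479 genes with a mean of at least 10. Per kilobase its level was 34496, at percentile 99.6 of the ranked genes. This was 11.4 times the level per kilobase of Serping1, the next of the 9 genes, and 24.1 times with the median transcript length. Against Rpe65, the retinoid isomerase of the visual cycle and a defining RPE gene, Clu stood at 0.564 times the level per kilobase. That order turned with the median transcript length, where the ratio was 1.08.

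Serping1 encodes C1 inhibitor, the serpin that inactivates C1r, C1s and the lectin pathway proteases. Serping1 (ENSMUSG00000023224) is annotated on chromosome 2 between 84765387 and 84775444, minus strand. Its mean normalized count was 5327 and its level 3013 per kilobase, at percentile 93.7. Among the genes of its targets, C1ra and C1s had levels of the same order as Serping1. The second genes for C1r and C1s were lower, with 466 counts per kilobase for C1rb and 80.1 for C1s2, listed as Gm5077. The lectin pathway proteases were lower still, with 7.33 counts per kilobase for Masp1 and 0.707 for Masp2. C1ra, which encodes the protease C1r, had 2000 counts per kilobase (a Serping1 to C1ra ratio of 1.51), and C1s, listed in the table under that older symbol of C1s1, had 2396 (a ratio of 1.26). With the median transcript length the ratio to C1s was 0.294, so which of Serping1 and C1s is higher rests on the transcript models.

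The membrane regulators that act on C3b and C4b are Cr1l, Cd55 and Cd46. Cr1l encodes Crry, a rodent protein that both dissociates the convertases and serves as a cofactor for their cleavage. Cd55 encodes decay-accelerating factor, a membrane protein that dissociates the convertases, and Cd46 encodes membrane cofactor protein, through which factor I cleaves C3b and C4b. In mice Cd46 is known for expression in the testis, while Crry is widespread. Cr1l (ENSMUSG00000016481) is annotated on chromosome 1 between 195097382 and 195131586, minus strand, and Cd46 (ENSMUSG00000016493) lies 5.13 kb away on the same strand, from 195036826 to 195092249. Cd55 (ENSMUSG00000026399) is found elsewhere on the same chromosome between 130439027 and 130462744, also on the minus strand.

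Cr1l was the highest of these regulators, with a mean normalized count of 2691. Its level of 697 per kilobase was at percentile 75.8. Cd55 had a mean normalized count of 612, with a level of 195 per kilobase, at percentile 48.0, close to the median gene. Cd46 had a mean normalized count of 88.2. Spread over a longest transcript of 6288 bases, this was a level of 14.0 per kilobase at percentile 9.22. Per kilobase, Cr1l therefore stood 3.57 times above Cd55 and 49.7 times above Cd46, where the second ratio was 30.9 with the median transcript length and 69.1 with the longest protein-coding transcript. The gene A330023F24Rik on the opposite strand shares 1079 exonic bases with Cd46 and had a mean normalized count of 881. The study's methods name a stranded library kit for rRNA-depleted RNA. Whether the counting used strand is not given in the sources used here. It is therefore unknown whether reads of Cd46 and A330023F24Rik from the overlap were told apart. Gm16083, opposite to Cd55, shares 102 exonic bases with it and had a mean of 0.841.

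Cd59a encodes a GPI-anchored protein that blocks the addition of C9 to the forming pore. Cd59a (ENSMUSG00000032679) is annotated on chromosome 2 between 104095801 and 104115354, plus strand. Its mean normalized count was 1974 and its level 1093 per kilobase, at percentile 83.4. Its neighbor Cd59b, a duplicate 4.61 kb away that is known for expression in the testis, had a mean of 227 and a level of 286 per kilobase. Cd59a was thus 3.83 times as high per kilobase, and 2.85 times with the median transcript length.

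Part of the reads of these membrane regulators could have come from a relative, and the shared sequence was therefore examined. Of all words of 50 bases in the transcripts of Cd55, 92.0% occur in no other annotated gene, and the rest occur in Cd55b, a duplicate on the same strand 16.0 kb away. For Cd59a the share was 96.1%, with the rest in Cd59b. For Cd59b itself the share was 85.9%, and Efr3a and Gm28625 each shared more of its words than Cd59a did. For Cr1l it was 95.7%, and nearly all of the rest lay in the processed pseudogene Crry-ps on chromosome 8. Cfi, Cd46, Serping1, C3ar1, C5ar1 and Clu shared no such word with another gene. The shared stretches covered 49.2% of the coding part of Cd55, 58.4% of that of Cr1l and 12.7% of that of Cd59a, in the longest protein-coding transcript of each.

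The longest shared coding stretch of each gene is printed here, since it shows where a member and its relative cannot be told apart by sequence. Capitals mark the bases that also occur in the relative, and lower case marks up to 8 flanking bases of the member. The flanking bases lie outside the shared words and were not compared 1 by 1 with the relative. All are written 5′ to 3′ on the mRNA sense strand, from the GENCODE transcripts of GRCm38, and coding bases are counted from 1 at the A of the start codon. The stretch of Cd55 runs over coding bases 98 to 295 and lies mostly in exon 2, at chr1:130461822-130462007 on the minus strand. The stretch of Cr1l runs over coding bases 701 to 983 in exons 5 and 6, at chr1:195117479-195117664 and chr1:195114745-195114841 on the minus strand. The stretch of Cd59a opens the coding part, over coding bases 1 to 47 in exon 3, at chr2:104104189-104104235 on the plus strand. It belongs to a shared run of 57 bases in the mRNA, which a sequenced fragment can outrun into sequence that differs.
Cd55, shared with Cd55b: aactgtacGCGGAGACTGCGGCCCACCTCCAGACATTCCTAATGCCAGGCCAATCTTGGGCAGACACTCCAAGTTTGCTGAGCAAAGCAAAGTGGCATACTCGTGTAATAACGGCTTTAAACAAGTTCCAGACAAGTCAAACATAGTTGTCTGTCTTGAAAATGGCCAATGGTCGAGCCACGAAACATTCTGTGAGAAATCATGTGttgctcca
Cr1l, shared with Crry-ps: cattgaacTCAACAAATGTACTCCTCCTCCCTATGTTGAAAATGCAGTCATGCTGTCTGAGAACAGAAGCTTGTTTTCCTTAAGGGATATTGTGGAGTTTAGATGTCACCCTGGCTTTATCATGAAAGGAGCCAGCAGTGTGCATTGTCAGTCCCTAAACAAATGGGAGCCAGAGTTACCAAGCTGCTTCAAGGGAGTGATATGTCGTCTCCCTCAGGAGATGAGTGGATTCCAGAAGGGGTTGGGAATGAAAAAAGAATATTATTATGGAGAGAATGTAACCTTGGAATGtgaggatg
Cd59a, shared with Cd59b: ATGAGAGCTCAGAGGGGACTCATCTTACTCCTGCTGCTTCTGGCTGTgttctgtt

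Cd55b and Crry-ps had lower means than the members they resemble. Cd55b, listed under its older symbol Daf2, had a mean normalized count of 4.83, and Crry-ps had 100.4. Cd55 stood 53.6 times above Cd55b per kilobase, and 100.8 times with the median transcript length, against a Cd55b mean under the minimum of 10. How the authors' quantification divided reads between a gene and its relative was not examined, so the values of Cd55, Cr1l and Cd59a carry that uncertainty in addition to the spread between mice.

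**Figure D2:**
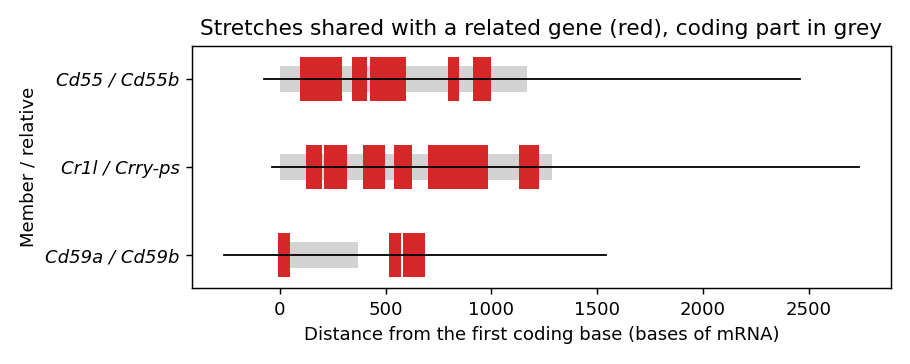
Position of the stretches that Cd55, Cr1l and Cd59a share with Cd55b, Crry-ps and Cd59b, in bases of mRNA from the first coding base of the longest protein-coding transcript. Black lines are transcripts, grey bars their coding parts and red bars runs of shared words of 50 bases, of which Cd55 has 5, Cr1l 6 and Cd59a 3.

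Cfi encodes factor I, the serine protease that cleaves C3b and C4b when a cofactor such as Crry or membrane cofactor protein holds them. Cfi (ENSMUSG00000058952) is annotated on chromosome 3 between 129835884 and 129875332, plus strand. Its mean normalized count was 54.2, the lowest of the 9 before division by length. Its level was 26.1 per kilobase, at percentile 15.5. The substrates of factor I were higher than Cfi, with 328 counts per kilobase for C3 (12.6 times Cfi) and 1213 for C4b (46.5 times Cfi). With the median transcript length these ratios were 69.8 and 215. C4b shares sequence with its duplicate C4a, so that 65.4% of its words are its own.

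C3ar1 and C5ar1 encode the receptors for C3a and C5a. C3ar1 (ENSMUSG00000040552) is annotated on chromosome 6 between 122847138 and 122856161, minus strand, and C5ar1 (ENSMUSG00000049130) on chromosome 7 between 16246743 and 16259540, minus strand. C3ar1 had a mean normalized count of 1263, with a level of 293 per kilobase, at percentile 57.1 (percentile 43.0 with the median transcript length). C5ar1 had a mean normalized count of 60.3, with a level of 23.8 per kilobase, at percentile 14.4. The C3a receptor was therefore 12.3 times as high per kilobase as the C5a receptor, and 12.1 times with the median transcript length. C5ar2, listed as Gpr77, encodes the other C5a receptor and had 15.6 counts per kilobase.

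C3a and C5a are cut from C3 and C5. C3 had a mean normalized count of 1685. Hc, which encodes C5, had a mean of 6.36 and a level of 1.17 per kilobase. C3ar1 stood at 0.894 times C3 per kilobase, and C5ar1 at 20.4 times Hc. With the median transcript length these ratios were 0.106 and 2.52, so their size rests on the transcript models.

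**Figure D3:**
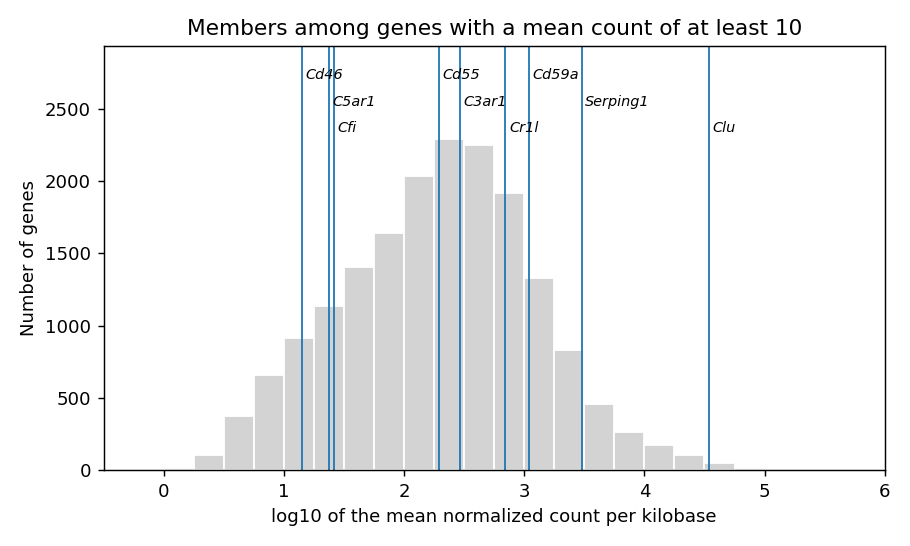
Number of genes by the log10 of the mean normalized count per kilobase, for the 17973 genes with a mean of at least 10 and an annotated length, with blue lines at the 9 genes. Clu lies in the upper tail at percentile 99.6, Cd55 and C3ar1 lie near the centre, and Cfi, C5ar1 and Cd46 lie in the lower part at percentiles 15.5, 14.4 and 9.22.

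The order per kilobase ran from Clu through Serping1, Cd59a, Cr1l, C3ar1, Cd55, Cfi and C5ar1 to Cd46. Several neighbors in that order lay close together, with ratios of 1.57 for Cd59a to Cr1l, 1.50 for C3ar1 to Cd55, 1.10 for Cfi to C5ar1 and 1.69 for C5ar1 to Cd46. With no value per library in use, these ratios could not be set against the spread between mice. Without division by length, 4 of the 9 genes changed place. Cr1l (2691) then stood above Cd59a (1974), and Cfi (54.2) rather than Cd46 (88.2) was lowest. For Cr1l and Cd55 the longest transcript retains an intron, and with the longest protein-coding transcript instead their levels were 970 and 242 per kilobase in the same order of the 9 genes.

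Of the other complement regulators and receptors, 20 genes are described. Their levels ran over a wide range, with 15 of the 20 at a mean of at least 10 and 7 above the median gene per kilobase. The highest were Vtn, which encodes the pore inhibitor vitronectin, with 3390 counts per kilobase, Itgb2, the beta chain of the leukocyte complement receptors CR3 and CR4, with 685, and C1qbp, named for binding C1q, with 598. The lowest of those with a mean above 0 were Cfhr3 (0.170 counts per kilobase), C4bp (0.477), which encodes a soluble C4b-binding cofactor, and Csmd2 (2.11). Cpn2 was listed at 0. Among these 20 genes no level per kilobase reached that of Clu.

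The complement components were listed in 29 rows, of which 19 had a mean of at least 10, 9 lay above the median gene per kilobase and 5 were listed at 0. The highest were the 3 chains of C1q, with 12659 counts per kilobase for C1qa, 7308 for C1qc and 7152 for C1qb. Cfb, which encodes the protease of the alternative pathway convertase, had 15.8 counts per kilobase. The lowest of those with a mean above 0 were C8a (0.0930), Masp2 (0.707) and C9 (0.805). The first and the last of these encode proteins of the pore that Cd59a and clusterin oppose. Those listed at 0 were C8b, Mbl1, Mbl2, Fcnb and Colec10. For comparison the median level per kilobase was 293 over the 9 genes described here, 18.1 over the other regulators and receptors and 39.4 over the components. Each of the 9 genes had a mean of at least 10, while both other lists hold genes under that minimum, some at 0. The 9 genes and the lists were also chosen with earlier results of these data known. The lists were not tested against each other.

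**Figure D4:**
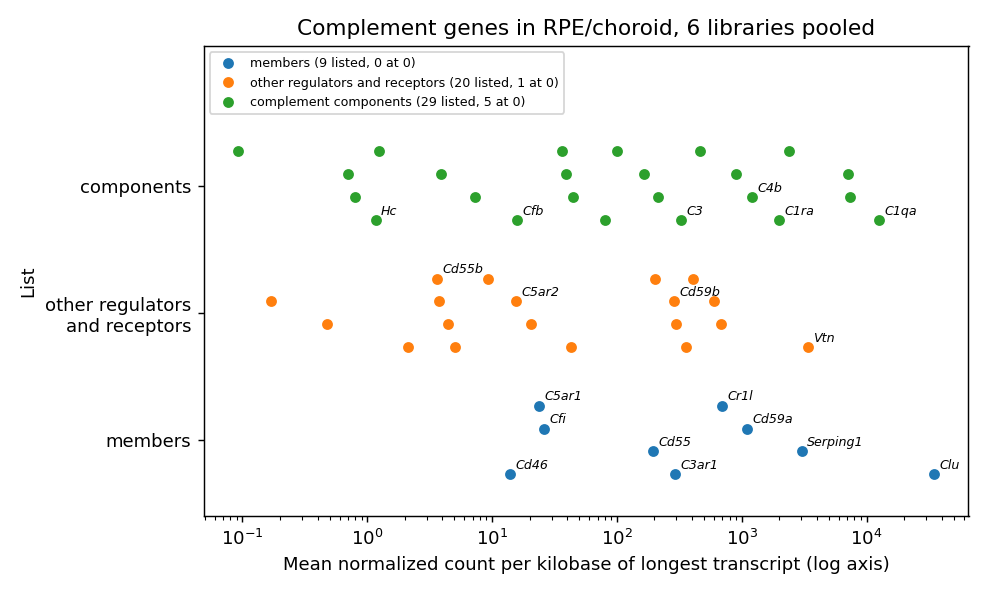
Mean normalized count per kilobase of the longest transcript (log axis) for the 9 genes described here (members, blue), 20 other complement regulators and receptors (orange) and 29 rows of complement components (green), with 1 point per gene above 0 and no error bar. The vertical offset within a list only separates points. Clu exceeds each other gene drawn, and C1qa at 12659 counts per kilobase is the highest component.

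The labelled tissue was checked against its markers. Of 10 RPE markers, 9 lay above the median gene, with Ttr at the highest level of 335233 counts per kilobase, and the exception was Best1 with 39.3. Endothelial markers had levels from 179 to 2251 per kilobase and fibroblast markers from 798 to 18042. Macrophage markers, from a cell type known to carry C3ar1 and C5ar1, lay between 247 and 92625, with Lyz2 highest, and the 5 mast cell markers between 61.2 and 972. RNA of tissues outside RPE and choroid was also present, with the 5 rod photoreceptor markers between 4145 and 30177 counts per kilobase and the 4 skeletal muscle markers between 8136 and 39379. The part of each cell type in the levels of the 9 genes was not tested.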

How the data were processed

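The authors sequenced 6 libraries of RPE/choroid, 3 from young and 3 from aged mice. Per their methods, read pairs were trimmed with BBDuk, mapped with STAR to Ensembl transcripts of GRCm38 and quantified with Sailfish as TPM values. The total count method then turned these values into normalized counts. The ages were compared with DESeq2, whose version is not given in the sources used here. The deposited mean normalized count is a signal that the authors averaged over the 6 libraries. The table's further columns hold the authors' age comparison (fold change, standard error, test statistic and p-values) and were not used, so the planned tests of age were not run.

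The depth of single libraries is unknown from a mean, and no interval was computed. Genes with a mean of at least 10 (18479) were ranked, 97.3% of them matched by symbol or synonym to GENCODE M21 (GRCm38) or RefSeq synonyms for a transcript length. Shared sequence was searched as words of 50 bases over all GENCODE transcripts. The authors mapped to a named Ensembl release, whose transcript models may differ from those of GENCODE M21. Both procedures were tested on simulated data. The genes named are the 9 members, their ligands, targets and relatives, and the 3 highest and 3 lowest genes and those at 0 in each list. Some listed genes are not reported here. Members and lists were chosen with earlier results of these data known. Python 3.11.15, numpy 2.4.6, pandas 2.3.3 and matplotlib 3.10.9 were used.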

Additional observations from a re-analysis of the deposited data

How the results depend on the processing

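The number of the 9 genes above the median gene was 5, and it was between 4 and 6 under each of the 5 alternatives run, which were a ranking among all genes with a mean above 0 (6), a ranking among genes with a mean of at least 50 (4), the median transcript length (5), no division by length (5) and the longest protein-coding transcript (6). The last was chosen after seeing the data. The genes behind this number changed. C3ar1 lay at percentile 57.1 but fell below the median with the median transcript length (43.0) and with the minimum of 50 (49.98), and Cd55 lay at 48.0 but above the median with the median transcript length (52.4), the longest protein-coding transcript (51.5) and the ranking among all genes above 0 (61.2). Over these settings the percentile of Clu ran from 99.5 to 99.8, that of Serping1 from 86.1 to 95.3 and that of Cd46 from 1.42 to 31.3. The median transcript length put Cr1l above Cd59a (2160 and 1167 counts per kilobase), Cd55 above C3ar1 (494 and 293) and Cd46 (69.8) above Cfi (39.7) and C5ar1 (24.3), as its construction shortens genes with many short transcript models.

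No paired analysis was possible because the values used pool the 6 libraries. The planned edgeR and DESeq2 fits, the fit with no filter and the leaving out of each library were not run on that account.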
